A study of Mus musculus with 5 samples.

Results

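The 132 genes described here have promoters in different occupancy classes: 1 start of the gene carries a set of proteins that another start of the same gene does not. The proteins are KAP1, a corepressor encoded by Trim28, and Ring1b, a catalytic subunit of Polycomb repressive complex 1 (PRC1) encoded by Rnf2. Both were mapped by chromatin immunoprecipitation and sequencing (ChIP-seq) in mouse embryonic stem cells. The authors deposited 3 promoter tables, for promoters with both proteins (called shared here), with KAP1 only and with Ring1b only. A gene was taken when its symbol stands in at least 2 of the 3 tables, so the members were selected on the deposited KAP1 and Ring1b peak calls at their promoters. They are 132 of the 12697 listed genes (1.04%), and they hold 284 of the 13039 listed promoters. A promoter without either protein is in no table, so starts with neither protein are not counted.

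The study has 5 libraries, 1 per group, and no replicates. Ring1b was immunoprecipitated from KAP1 fl/fl cells and from Ring1b fl/fl cells, each given 4-hydroxytamoxifen (4-OHT) for 24 h, which deletes the floxed gene, and from Ring1b fl/fl cells given vehicle. The KAP1 libraries came from the KAP1 fl/fl line, given 4-OHT or vehicle. All cells were cultured for a further 48 h, with 4-OHT kept in the medium of the Ring1b fl/fl line and absent from that of the KAP1 fl/fl line. All were grown on irradiated mouse embryonic fibroblast feeders, fixed for 10 min in 1.2% formaldehyde and sheared to about 200 bp. Each of the vehicle libraries was called against the 4-OHT library of its own line, and these calls define the promoter classes. The KAP1 and Ring1b calls therefore come from different fl/fl lines, and a difference between the proteins and a difference between the lines cannot be told apart. The Ring1b library of KAP1 fl/fl 4-OHT cells was called against Ring1b of Ring1b fl/fl 4-OHT cells, a different line, and its peaks are named the knockout list below. The libraries are of bulk chromatin and do not show whether both starts of a gene were occupied in the same cells. No source used here gives the number of reads per library, and the intervals hold only the counting error over genes or promoters.

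Many mammalian genes begin transcription at alternative promoters, which can lie far apart and give transcripts with different first exons. KAP1 is brought to DNA chiefly by KRAB zinc finger proteins, and it recruits the histone methyltransferase SETDB1. PRC1 ubiquitinates histone H2A, and in embryonic stem cells Ring1b is known for marking CpG-rich promoters of developmental genes. CpG islands are stretches rich in the dinucleotide CG and are common at mammalian promoters.

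Paired promoter sequences of 5 genes are printed to show what the differently occupied starts of a gene look like. These genes were chosen after their values were seen, as 3 in which the start with Ring1b holds more CG dinucleotides (Dnmt3a, Wnt5b and Pak6), 1 in which it holds fewer (Kdm2b) and 1 with Ring1b at both starts and KAP1 at only 1 of them (Prkg1). Each sequence runs from 250 bases before to 50 bases after the RefSeq start on GRCm38.p6, 5′ to 3′, with every CG in capitals.
Dnmt3a shared start, chr12:3806730-3807029, plus strand: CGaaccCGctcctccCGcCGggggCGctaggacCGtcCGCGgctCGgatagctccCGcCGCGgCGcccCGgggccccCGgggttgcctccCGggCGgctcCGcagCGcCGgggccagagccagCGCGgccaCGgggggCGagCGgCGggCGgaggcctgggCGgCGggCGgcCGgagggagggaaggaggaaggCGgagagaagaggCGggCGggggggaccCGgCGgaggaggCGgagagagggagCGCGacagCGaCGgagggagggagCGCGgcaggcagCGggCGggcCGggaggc
Dnmt3a KAP1 only start, chr12:3891494-3891793, plus strand: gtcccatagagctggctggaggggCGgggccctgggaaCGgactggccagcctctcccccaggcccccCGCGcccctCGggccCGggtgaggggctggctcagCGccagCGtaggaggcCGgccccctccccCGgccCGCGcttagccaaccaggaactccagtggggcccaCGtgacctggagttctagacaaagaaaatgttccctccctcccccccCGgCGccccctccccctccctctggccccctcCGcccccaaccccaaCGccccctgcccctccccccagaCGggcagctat
Wnt5b Ring1b only start, chr6:119544298-119544597, minus strand: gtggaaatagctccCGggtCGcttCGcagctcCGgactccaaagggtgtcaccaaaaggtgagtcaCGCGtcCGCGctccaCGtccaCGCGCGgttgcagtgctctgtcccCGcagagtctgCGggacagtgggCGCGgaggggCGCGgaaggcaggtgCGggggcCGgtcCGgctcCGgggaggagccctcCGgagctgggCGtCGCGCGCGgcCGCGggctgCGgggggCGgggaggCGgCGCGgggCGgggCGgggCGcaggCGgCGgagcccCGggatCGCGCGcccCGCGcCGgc
Wnt5b KAP1 only start, chr6:119449337-119449636, minus strand: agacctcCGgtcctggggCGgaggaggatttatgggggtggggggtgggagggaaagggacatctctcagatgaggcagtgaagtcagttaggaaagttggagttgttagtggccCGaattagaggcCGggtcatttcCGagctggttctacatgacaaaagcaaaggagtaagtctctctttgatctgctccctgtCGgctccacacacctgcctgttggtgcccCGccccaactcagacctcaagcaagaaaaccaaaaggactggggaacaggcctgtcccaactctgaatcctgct
Pak6 Ring1b only start, chr2:118676996-118677295, plus strand: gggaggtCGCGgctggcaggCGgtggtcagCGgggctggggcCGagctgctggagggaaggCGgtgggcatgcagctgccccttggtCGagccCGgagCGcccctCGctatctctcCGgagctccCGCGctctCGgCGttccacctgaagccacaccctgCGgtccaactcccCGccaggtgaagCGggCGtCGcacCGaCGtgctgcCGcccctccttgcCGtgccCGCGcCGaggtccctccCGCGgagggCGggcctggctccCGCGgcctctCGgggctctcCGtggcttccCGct
Pak6 KAP1 only start, chr2:118663327-118663626, plus strand: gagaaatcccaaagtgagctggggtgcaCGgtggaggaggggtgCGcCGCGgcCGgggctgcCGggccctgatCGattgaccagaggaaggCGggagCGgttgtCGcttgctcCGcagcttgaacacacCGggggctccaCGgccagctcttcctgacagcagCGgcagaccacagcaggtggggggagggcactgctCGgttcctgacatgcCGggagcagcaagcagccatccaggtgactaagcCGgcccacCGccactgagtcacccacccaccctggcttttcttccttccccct
Kdm2b shared start, chr5:122989050-122989349, minus strand: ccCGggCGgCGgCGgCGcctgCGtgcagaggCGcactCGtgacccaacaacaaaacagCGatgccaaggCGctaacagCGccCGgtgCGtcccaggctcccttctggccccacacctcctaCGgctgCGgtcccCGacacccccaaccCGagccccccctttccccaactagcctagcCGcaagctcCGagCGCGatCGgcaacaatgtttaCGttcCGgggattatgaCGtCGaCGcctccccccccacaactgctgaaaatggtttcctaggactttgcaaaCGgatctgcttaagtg
Kdm2b KAP1 only start, chr5:122900301-122900600, minus strand: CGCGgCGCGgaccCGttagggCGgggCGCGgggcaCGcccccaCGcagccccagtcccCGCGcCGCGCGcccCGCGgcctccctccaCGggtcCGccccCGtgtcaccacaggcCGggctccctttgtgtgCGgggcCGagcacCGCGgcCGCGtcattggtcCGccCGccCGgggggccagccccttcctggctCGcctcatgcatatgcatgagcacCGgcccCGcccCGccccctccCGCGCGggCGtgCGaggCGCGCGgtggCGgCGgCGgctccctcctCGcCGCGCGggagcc
Prkg1 shared start, chr19:31664321-31664620, minus strand: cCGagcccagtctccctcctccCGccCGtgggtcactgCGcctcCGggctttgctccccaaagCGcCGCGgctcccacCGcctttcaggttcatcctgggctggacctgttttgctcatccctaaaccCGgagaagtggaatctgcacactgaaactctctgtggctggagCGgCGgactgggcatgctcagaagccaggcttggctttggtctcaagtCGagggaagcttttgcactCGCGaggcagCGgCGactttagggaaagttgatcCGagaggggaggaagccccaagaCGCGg
Prkg1 Ring1b only start, chr19:31764984-31765283, minus strand: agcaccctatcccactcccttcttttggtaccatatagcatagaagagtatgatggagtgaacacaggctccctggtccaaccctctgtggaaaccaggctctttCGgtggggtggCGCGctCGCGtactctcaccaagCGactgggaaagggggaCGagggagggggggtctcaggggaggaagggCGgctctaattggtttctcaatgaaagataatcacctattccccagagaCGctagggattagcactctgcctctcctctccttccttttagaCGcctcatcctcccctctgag

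In Dnmt3a, which encodes a de novo DNA methyltransferase, the shared start held 46 CG in 300 bases, against 18 at the KAP1 only start. Deposited Ring1b peaks covered 265 of the 300 bases at the shared start and 0 at the KAP1 only start. Wnt5b, a Wnt ligand, had 47 CG at its Ring1b only start and 7 at its KAP1 only start. Pak6, a p21-activated kinase, had 35 CG at its Ring1b only start and 18 at its KAP1 only start. Kdm2b encodes a protein that binds unmethylated CpG islands and brings a variant PRC1 to them. Its shared start had 28 CG, against 49 at its KAP1 only start. The shared window of Kdm2b also lists a transcript of another gene, A930024E05Rik, and occupancy of the 2 genes' starts cannot be told apart there. The Kdm2b sequence at the shared start lies outside the Ring1b peak (0 of 300 bases), since the deposited window merges several starts and the peak lies toward its other end. Prkg1, the cGMP-dependent protein kinase, had Ring1b at both starts, with 20 CG at the start that also had KAP1 and 10 at the start without it. CG counts over all members are not compared: of the 110 genes with a start that has Ring1b and a start that lacks it, 66 (60%) have RefSeq promoter sequence at both, under the 80% needed, so that check is void.

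Most of the 132 genes paired a shared start with a KAP1 only start. There were 315 genes with at least 2 listed promoters, and 132 of them, or 41.9% (exact Clopper-Pearson 95% interval 36.4 to 47.6%), had promoters in different classes. The other 183 had promoters of a single class. Among the 132, 99 genes combined shared and KAP1 only promoters (75%, 66.7 to 82.1%). A further 22 combined shared and Ring1b only promoters (16.7%, 10.7 to 24.1%), and 9 combined KAP1 only and Ring1b only promoters (6.82%, 3.16 to 12.5%). All 3 classes occurred in 2 genes, Dpp6 and Pde4dip. The 284 promoters comprised 132 shared, 118 KAP1 only and 34 Ring1b only. Over all 13039 listed promoters, 40.2% were shared, 53.1% were KAP1 only and 6.78% were Ring1b only. Of the members, 119 had 2 promoters, 6 had 3 and 7 had 4, and all lay on autosomes. The rule itself sets these counts, so they are given as a description.

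The symbol match also took in 5 entries that are not alternative starts of 1 gene copy. Gm10778, Gm13290, Gm3020 and Plac9a each listed the same RefSeq accession at several windows, as copies of a gene do, and reads from near-identical copies can be misplaced. Peg13, an imprinted noncoding RNA, had the same window in the shared and the Ring1b only tables, with a Ring1b score of 104. Its nearest peak in the deposited KAP1 list lay 120187 bp away. This was the single shared promoter whose class was not rebuilt from the peak lists: 5235 of 5236 shared, 6919 of 6919 KAP1 only and 884 of 884 Ring1b only promoters were. In 15 members at least 1 window also listed a transcript of another gene, for instance Senp1 with Pfkm, Blvrb with Sptbn4 and Snhg1 with Slc3a2, and occupancy of the 2 genes' starts cannot be told apart there. Leaving out all such genes kept 115 members, with 87, 17, 9 and 2 genes in the 4 combinations in the order given above. In 4 members at least 1 window listed no accession of the gene's RefSeq entry, among them 2 of the 4 windows of Pde4dip. That was not a ground for leaving a gene out.

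In 72 of the 132 genes the differently occupied starts were at least 20 kb apart. The distance between the closest starts of different class had a median of 24192 bp in the 132 genes (quartiles 7425 and 70532 bp), against 16051 bp between the closest starts of the 183 single-class genes (quartiles 5159 and 54751 bp). The 95% intervals of the medians were 15619 to 30991 bp for the 132 genes and 9348 to 23058 bp for the 183, and they overlap. Starts under 5 kb apart made up 15.2% of the 132 genes and 23.5% of the 183. Starts over 100 kb apart made up 17.4% of the 132 and 13.1% of the 183. Conversely, promoters fell in different classes in 72 of 155 genes with starts at least 20 kb apart (46.5%, 38.4 to 54.6%) and in 60 of 160 genes with closer starts (37.5%, 30.0 to 45.5%). By combination, the medians were 24592 bp for shared with KAP1 only (95% interval 15619 to 34306 bp) and 14711 bp for shared with Ring1b only (3875 to 143243 bp). The median was 22046 bp for KAP1 only with Ring1b only (13669 to 70246 bp), and these intervals overlap. The distances of the 132 genes include the gene copies and Peg13 named above, all of them shared with Ring1b only. Without these entries the median over 127 genes was 23792 bp. Starts under 2 kb apart fall into overlapping or merged windows, which limits short distances by construction.

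**Figure D1:**
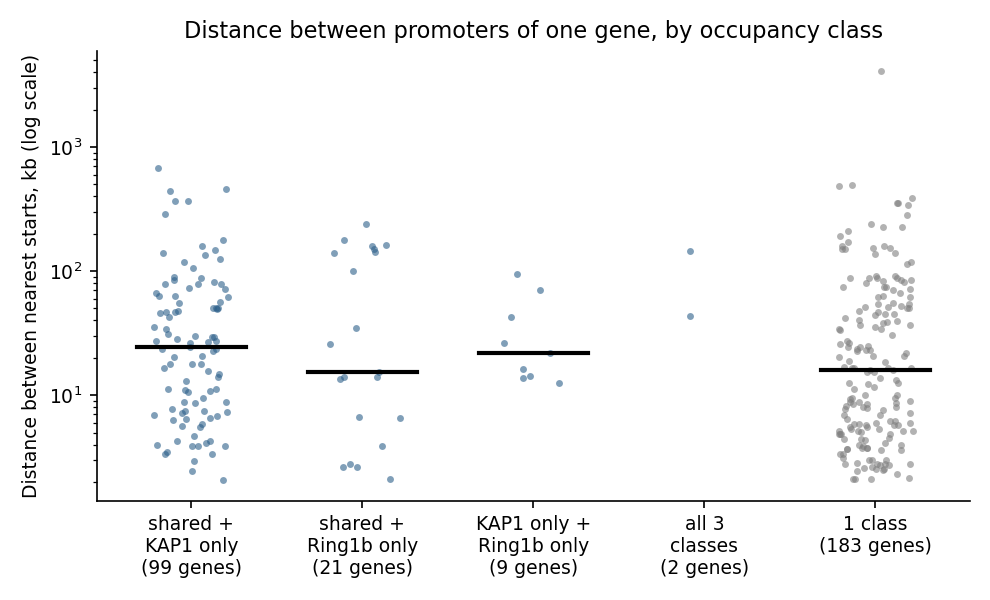
Distance in kb (log scale) between the closest starts of different class in each member gene, by combination of classes, beside the closest starts of the 183 genes with promoters of a single class. Each point is a gene and each bar a median; Peg13, at distance 0, is left out, which puts the shared with Ring1b only bar at 21 genes. The 132 members reach 680472 bp, and their median of 24192 bp lies above the 16051 bp of the single-class genes, with overlapping intervals.

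Within these genes the start with Ring1b was more often the upstream one. Each gene was counted by its closest pair of starts with and without the protein. Where a gene has several promoters, its other starts can lie the other way. Trim2, described below, counts as Ring1b downstream, though its most upstream listed start carried Ring1b. Strand was known for 105 of the 110 genes with a start that has Ring1b and a start that lacks it. The start with Ring1b was the upstream one in 75 of them (71.4%, 61.8 to 79.8%) and the downstream one in 30. The share was 79.3% (46 of 58, 66.6 to 88.8%) where the starts were at least 20 kb apart and 61.7% (29 of 47, 46.4 to 75.5%) where they were closer. It was 76.8% (43 of 56) for genes whose Ring1b peak scored above the median of its list. For KAP1 the start with the protein was upstream in 14 of 31 genes (45.2%, 27.3 to 64.0%) and downstream in 17, and the interval includes 50%, so no direction is read from it. In 8 of the 31 a KAP1 only start is paired with a Ring1b only start, so the KAP1 order mirrors the Ring1b order. KAP1 was upstream in 1 of these 8 and downstream in 7. In the 21 genes with shared and Ring1b only starts it was upstream in 11 and downstream in 10. These 21 include the gene copies Gm10778, Gm13290, Gm3020 and Plac9a, whose windows have no order along 1 gene. Leaving out the copies, KAP1 was upstream in 11 of 27 genes over all combinations (40.7%, 22.4 to 61.2%). In both genes with all 3 classes KAP1 starts lay on either side of the Ring1b only start. The closer one was upstream, so these genes count as upstream, but a KAP1 only start lay farther downstream. Genes are not replicates and the order has no test here.

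**Figure D2:**
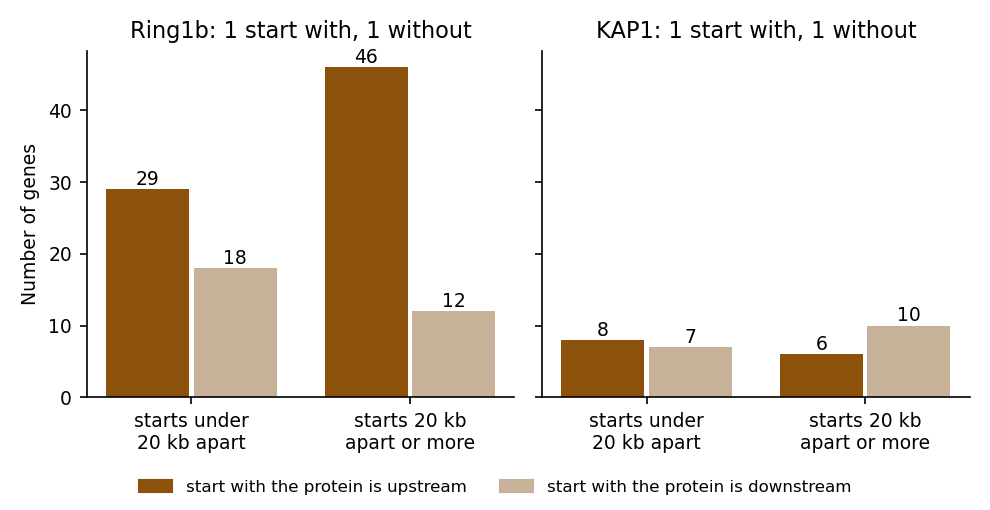
Number of genes in which the start with the protein lies upstream (dark) or downstream (light) of the start without it, for Ring1b (left) and KAP1 (right), split by the distance between the starts. The closest such pair of starts is used in each gene, and the KAP1 counts include the gene copies named above. For Ring1b the counts are 29 upstream and 18 downstream under 20 kb, and 46 upstream and 12 downstream at 20 kb or more; for KAP1 they are 8 and 7, and 6 and 10.

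Most starts called free of Ring1b were several kb or more from any Ring1b peak, while KAP1 peaks often lay nearer to KAP1-free starts. From the Ring1b-free start of the 110 genes, the nearest Ring1b peak lay a median of 14827 bp away (quartiles 7071 and 35899 bp). In 5 genes it lay between 1 and 2 kb, in 17 under 5 kb and in 49 at 20 kb or more. From the KAP1-free start of 32 genes, the nearest KAP1 peak lay a median of 4772 bp away (quartiles 2022 and 21024 bp). In 8 of the 32 it lay between 1 and 2 kb, and in 16 under 5 kb. The lists differ in size, with 82775 KAP1 and 13516 Ring1b peaks, and the part of list size in these distances was not tested. A promoter counted as occupied when a peak reached within 1 kb of the start. Just inside that limit lay the Ring1b peaks at Ffar2 (962 and 957 bp) and Kifc3 (881 bp) and the KAP1 peaks at Nedd4l (989 bp) and Ppp2r2b (970 bp). Just outside lay the Ring1b peaks at Sptbn4 (1065 bp), Rara (1134 bp) and Rusc1 (1334 bp) and the KAP1 peaks at Gm3020 (1054 bp), Tbx4 (1184 bp) and Ptprs (1206 bp).

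**Figure D3:**
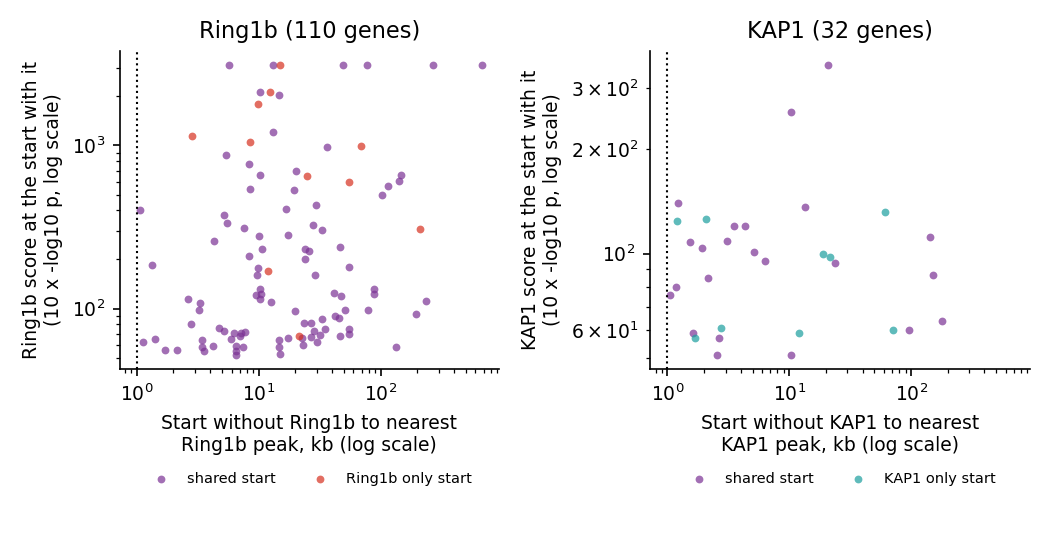
For each gene, the distance in kb (log scale) from the start that lacks the protein to that protein's nearest deposited peak, against the score (log scale) of the peak at the start that has it, for Ring1b (left) and KAP1 (right). Points are genes, coloured by the class of the start that has the protein, and the dotted line marks the 1 kb limit of a promoter. Distances run up to 678892 bp for Ring1b and 177861 bp for KAP1.

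Each peak carries the authors' MACS score, 10 times the -log10 p of that library against its control, which is used here only to rank peaks within a list. The Ring1b list had a median score of 116 and the KAP1 list a median of 96.2. In the Ring1b list 732 peaks are tied at 3100, so these cannot be ranked among themselves. At the 132 shared promoters of the members the Ring1b score had a median of 131.5 (95% interval 108 to 232), against 214 at the other 5104 shared promoters. At their 34 Ring1b only promoters it had a median of 869 (255 to 1789), against 588 at the other 850. Both intervals include the median of the other promoters, so no difference is read from them. Shared starts paired with a KAP1 only start had a median Ring1b score of 114.5 (95% interval 92 to 177), close to the list's own median. Shared starts paired with a Ring1b only start had a median of 2160 (130 to 3100), and 9 of those 24 stood at 3100. The 2 intervals overlap. In the 99 genes with KAP1 at both closest starts, the KAP1 score was higher at the start that also had Ring1b in 63, lower in 35 and equal in 1, with medians of 135 and 115.

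The 99 genes with a shared and a KAP1 only start included regulators of chromatin, signalling and synapses. Dnmt3a on chromosome 12 had its shared window from position 3806979 to 3807159, with scores of 698 for Ring1b and 195 for KAP1. Its KAP1 only start lay downstream at 3891743, 84584 bp away, with a KAP1 score of 121. Positions here, on mm10 (GRCm38), are the middle of a 2000 bp deposited window, which can differ by 1 base from the RefSeq start. For a wider window they are the points 1000 bp inside its ends. Between these windows lay 8 KAP1 peaks and 1 Ring1b peak, so KAP1 peaks recurred along the stretch while Ring1b was listed at the upstream window and at 1 site between. Phc2, a Polyhomeotic subunit of PRC1, had its shared start at 128654701 on chromosome 4, with Ring1b scored 160 and KAP1 76. The KAP1 only start of Phc2 lay 72869 bp downstream with a score of 131. Kdm2b on chromosome 5 had a shared window starting at 122988533 (Ring1b 98, KAP1 120) and a KAP1 only start at 122900350 (KAP1 98), 88183 bp downstream. In Dnmt3a, Phc2 and Kdm2b the start with Ring1b was the upstream one, with the limit on the Kdm2b window given above. The other chromatin regulator of this combination, Fbrsl1, named after its values were seen, had the opposite order: its shared start (Ring1b 69, KAP1 146) lay 61376 bp downstream of its KAP1 only start (KAP1 234).

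The 5 longest distances in this combination were 680472 bp in Magi2, 461225 bp in Rims2, 441367 bp in Rabgap1l, 370214 bp in Magi1 and 365198 bp in Grip1. Magi1, Magi2 and Grip1 encode PDZ scaffold proteins, Rims2 a presynaptic active zone protein and Rabgap1l a Rab GTPase-activating protein. The start with Ring1b was upstream in all 5. Its Ring1b score was 3100 in Magi2 and in Grip1, 607 in Rabgap1l, 112 in Magi1 and 92 in Rims2. The highest Ring1b scores, all 3100, were in Grip1, Magi2, Mapre2, Pfdn4 and Rfx4, by the order of their symbols, with Slc45a3 at the same value. Rfx4, an RFX family transcription factor, had KAP1 scores of 258 at its shared start and 205 at its KAP1 only start, 82100 bp downstream. The highest KAP1 scores were 724 at the KAP1 only start of Rusc2, 608 at the shared start of Ldb1 (a LIM-domain-binding cofactor), 522 at the KAP1 only start of Mapre2 (a microtubule plus-end protein), 504 at the shared start of Pfkm (muscle phosphofructokinase) and 483 at the KAP1 only start of Ankrd6. The strongest KAP1 peaks thus stood on either kind of start.

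Short distances also occurred in this combination. Vegfa, the vascular endothelial growth factor, had a shared start (Ring1b 373, KAP1 141) and 7214 bp downstream a KAP1 only start (KAP1 59). The semaphorins Sema6b and Sema6c had the same order, with starts 6491 and 3919 bp apart and Ring1b scores of 334 and 64. Plxnb2, a plexin receptor for semaphorins, had the reverse order: its shared start, with a Ring1b score of 55, lay 6938 bp downstream of the KAP1 only start. Kcnj6, an inwardly rectifying potassium channel, had a shared start (Ring1b 177, KAP1 99) and a KAP1 only start (139) 141006 bp downstream. The phosphodiesterase gene Pde4a had a Ring1b score of 2048 at its shared start, 30991 bp upstream of its KAP1 only start. Slc3a2, the heavy chain of amino acid transporters, and the myosin Myo1c had the start with Ring1b downstream, with Ring1b scores of 121 and 56.

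The Ring1b score at the shared start varied widely among the further named genes of this combination. The chloride channel Clcn3 had Ring1b 73 and KAP1 155 there, and KAP1 163 at its KAP1 only start 28512 bp downstream. Arhgef7, a guanine nucleotide exchange factor, had Ring1b 160 and KAP1 195 at its shared start, and KAP1 191 at its KAP1 only start 30225 bp downstream. The microtubule-associated protein gene Map1a had Ring1b 73 and KAP1 179 at its shared start, and KAP1 350 at its KAP1 only start 5852 bp downstream. Slc52a3, a riboflavin transporter, had Ring1b 98 and KAP1 96 at its shared start, and KAP1 109 at its KAP1 only start 3355 bp downstream. Slc45a3 differed from these, with Ring1b 3100 and KAP1 349 at its shared start and KAP1 113 at its KAP1 only start 7694 bp downstream. Sptbn4, a beta spectrin, had Ring1b 404 at its shared start, and a Ring1b peak lay 1065 bp from its KAP1 only start. In Clcn3 and Arhgef7 the KAP1 scores of both starts were thus nearly equal while the Ring1b call differed.

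Genes with more than 2 listed promoters did not always have a simple order. Trim2, a TRIM family ubiquitin ligase named here after its values were seen, had 4 promoters on chromosome 3 whose classes alternated. In order of position they were KAP1 only at 84220877 (KAP1 77), shared at 84259779 (Ring1b 2123, KAP1 65), KAP1 only at 84270783 (KAP1 65) and shared at 84304775 (Ring1b 459, KAP1 104). Ring1b was thus listed at every other start of Trim2.

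The 22 genes with a shared and a Ring1b only start ranged widely in Ring1b score, from 82 to 3230 at the shared starts and from 59 to 3100 at the Ring1b only starts. Transcription factors were among those with high scores at both starts. Nfix, a nuclear factor I gene, had Ring1b scores of 3100 at its shared start and 2519 at its Ring1b only start, 25971 bp upstream. Tbx4, a T-box factor of the hindlimb, had 3100 at its shared start and 1340 at its Ring1b only start, 6702 bp downstream. Bcl11a, a zinc finger transcription factor, had starts 2639 bp apart, and Pdgfra, a platelet-derived growth factor receptor, starts 3875 bp apart. In Bcl11a, Pdgfra, Irf5 and Peg13 a single Ring1b peak reached both closest windows, so the starts of these 4 genes share the Ring1b call. Pdgfra is also a marker of fibroblasts, and the cells grew on fibroblast feeders; the part of feeder chromatin in this call was not tested.

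Other members of this combination had their starts far apart. Prkg1 on chromosome 19 had a shared start at 31664370 (Ring1b 3230, KAP1 104) and a Ring1b only start 100663 bp upstream at 31765033 (Ring1b 3100). A KAP1 peak lay 1914 bp from that upstream start, outside the promoter limit. Nlgn1, the postsynaptic adhesion protein neuroligin, had a Ring1b score of 3100 at its shared start and 108 at its Ring1b only start, 178602 bp downstream. Smarca2, an ATPase of the SWI/SNF remodelling complex, had 3100 at its shared start and 216 at its Ring1b only start, 143243 bp downstream. Atp2b2, a plasma membrane calcium pump, had 92 at its shared start and 331 at its Ring1b only start, 150704 bp upstream. Frmd4a had 90 at its shared start, which carried the highest KAP1 score of the combination (350), and 1025 at its Ring1b only start 158778 bp upstream. Gm3020 and Gm10778, at 239416 and 163117 bp, are the gene copies named above. AI854517, the host transcript of miR-9-3, had Ring1b scores of 1906 at its shared and 3100 at its Ring1b only start, 15409 bp apart. The sodium-activated potassium channel Kcnt1 had low Ring1b scores at both starts, 89 and 100.

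Gnas, the imprinted gene of the stimulatory G protein alpha subunit, had 4 listed promoters on chromosome 2. From upstream to downstream they were a shared start at 174284319 (Ring1b 2414, KAP1 140), a Ring1b only start at 174297858 (Ring1b 2422) and shared starts at 174327913 (Ring1b 3100, KAP1 128) and 174330088 (Ring1b 3100, KAP1 86). Ring1b was thus listed at all 4 Gnas starts with high scores, and the class turned on KAP1 alone. A single Ring1b peak reached the starts at 174327913 and 174330088, so these share the Ring1b call. The KAP1 peak nearest to the Ring1b only start lay 1212 bp from it.

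The 9 genes that paired a KAP1 only with a Ring1b only start had no promoter with both proteins in the tables. They included Asap1, Nt5c3, Pak6, Ptprs, Sulf1, Trp73 and Wnt5b. Trp73, a p53 family gene whose alternative promoters give full-length and N-terminally truncated proteins, had its Ring1b only start upstream at 154140208 on chromosome 4 with a score of 3100. The KAP1 only start of Trp73 lay 43035 bp downstream at 154097173 with a KAP1 score of 126. A KAP1 peak lay 2058 bp from the upstream start, outside the promoter limit. Wnt5b had its Ring1b only start at 119544347 on chromosome 6 (Ring1b 1149) and its KAP1 only start 94961 bp downstream at 119449386 (KAP1 132). The nearest KAP1 peak to the upstream Wnt5b start was 60981 bp away, while the nearest Ring1b peak to the downstream start was 2819 bp away.

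Of the 8 genes in this group with a known strand, 7 had Ring1b at the upstream and KAP1 at the downstream start. The exception was Pak6 on chromosome 2, with its Ring1b only start at 118677245 (score 2121) downstream of its KAP1 only start at 118663576 (score 61). Ptprs, a receptor tyrosine phosphatase, had Ring1b scored 1789 and KAP1 scored 124 at starts 14259 bp apart. Asap1, an Arf GTPase-activating protein, had 998 and 60 at starts 70246 bp apart, and Sulf1, a heparan sulfate sulfatase, had 649 and 100 at starts 26115 bp apart. Nt5c3, a pyrimidine nucleotidase, had low scores for both, 68 for Ring1b and 98 for KAP1. Over the 9 genes the median score was 1050 for Ring1b, above its list's median of 116, and 98 for KAP1, near its list's median of 96.2. The interval of this Ring1b median, 169 to 2121, includes the median of 588 at the other 850 Ring1b only promoters. A high Ring1b score is therefore not read as a trait of these 9 genes. In Ptprs the KAP1 peak nearest to the Ring1b only start lay 1206 bp from it.

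The 2 genes with all 3 classes ran in the same order along the gene. Dpp6, an auxiliary subunit of A-type potassium channels, had shared starts at 26817356 (Ring1b 637, KAP1 114) and 26904777 (Ring1b 131, KAP1 112) on chromosome 5. A Ring1b only start at 27049198 (Ring1b 309) and a KAP1 only start at 27261934 (KAP1 103) followed. Pde4dip, which encodes the centrosome and Golgi protein myomegalin, lies on the minus strand of chromosome 3. It had shared starts at 97888707 (Ring1b 439, KAP1 52) and 97868312 (Ring1b 393, KAP1 101), then a Ring1b only start at 97824621 (Ring1b 595) and a KAP1 only start at 97768014 (KAP1 166). In both genes the most downstream start was the one without Ring1b.

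**Figure D4:**
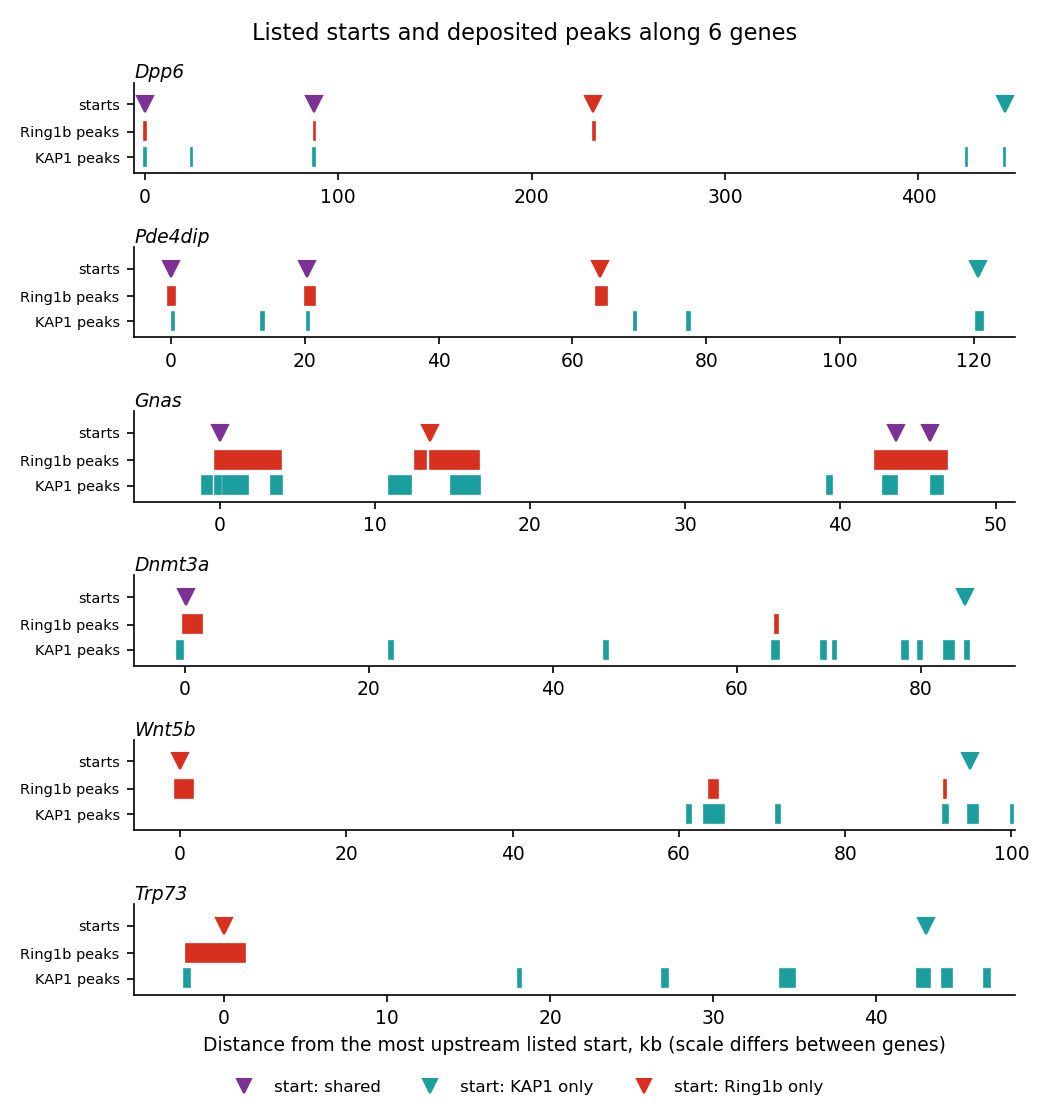
Listed starts (triangles, coloured by class) and deposited Ring1b and KAP1 peaks (bars, at their true width) along 6 genes, in kb from the most upstream listed start and in the direction of transcription; each gene has its own scale. The 6 genes were picked after their values were seen. The 5 genes other than Gnas have a KAP1 only start at their downstream end, which by the class definition carries no Ring1b peak.

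Gene groups were read against the 41.9% of all 315 genes that had promoters in different classes. The lists were fixed with earlier results of these data known, the groups are small, and none was tested. All 4 axon guidance and adhesion genes with at least 2 listed promoters were members (Nlgn1, Plxnb2, Sema6b and Sema6c), as were 5 of 7 ion channel genes (among them Cacnb1, Clcn3, Kcnj6 and Kcnt1). Of the cyclic nucleotide and kinase scaffold genes 5 of 8 were members, and of the chromatin regulators 5 of 9. Shares nearer to the background were found for solute carriers (3 of 6), cytoskeleton and junction genes (3 of 6), imprinted genes (2 of 4), signalling ligands and receptors (3 of 7) and lineage transcription factors (4 of 13). Of the genes of the cell cycle and tumour suppressors 1 of 5 was a member, Trp73. None was a member among 2 Hox genes, 4 numbered zinc finger genes and 2 pluripotency genes. The fibroblast list had 1 gene with several promoters, Pdgfra, and no ribosomal protein gene had more than 1. In all, 36 of the 132 members (27.3%) stood in any list.

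Few promoters of these genes, as of all listed genes, had a Ring1b peak in KAP1 fl/fl 4-OHT cells by the knockout list. A peak of that list lay in the window of 4 of the 284 promoters (1.41%, 0.385 to 3.57%), against 412 of the 12755 other listed promoters (3.23%). Over all 13039 the share was 3.19%, which lies inside the members' interval. The 4 promoters were the shared start of Pde7a, a cAMP phosphodiesterase, and the KAP1 only starts of Akap1 (a protein kinase A anchor), Ltbp4 (a latent TGF-beta binding protein) and Syne3 (a nesprin). The knockout-list score was 58.69 at Pde7a, 56.21 at Akap1, 54.82 at Ltbp4 and 73.28 at Syne3. The lowest score was 50.02 in the vehicle Ring1b list and 50.01 in the KAP1 list, so most of these peaks may lie near the calling limit. At the shared starts of these genes the Ring1b score in vehicle cells was 68 for Pde7a, 109 for Akap1, 114 for Ltbp4 and 278 for Syne3. So 3 of these 4 peaks stood on starts without Ring1b in vehicle cells, among 118 such starts (2.54%, 0.527 to 7.25%). Among the 166 starts with Ring1b there was 1 (0.602%, 0.0153 to 3.31%), and these intervals overlap. The KAP1 fl/fl 4-OHT and the Ring1b fl/fl vehicle libraries come from different lines, so an effect of KAP1 loss and a difference between the lines cannot be told apart.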

How the data were processed

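Mouse embryonic stem cell ChIP-seq libraries, 1 per group, were processed by the authors on mm10 (GRCm38) with MACS 1.4.2, bedtools 2.16.2, Bowtie2 and CASAVA 1.8.2, per the submitters' processing notes. The authors deposited peak lists and promoter tables in which each peak has a score, 10 times the -log10 p, per the file headers. The sources used here give no read depths. A promoter is 1 kb on each side of a start, and windows of nearby starts are merged, giving 43 member windows over 2000 bp wide. The start was taken as the middle of a 2000 bp window. In a wider window the starts were taken to run between the points 1000 bp inside its ends. Distances were measured between the nearest of these points. Classes were rebuilt from the peak lists (at least 1 bp overlap) and the code was checked on simulated data. Strand came from RefSeq GRCm38.p6 for 127 of the 132 genes, 16 of them from gene borders. Listed starts within 100 bp of a RefSeq start took its sequence. Intervals of shares are exact (Clopper-Pearson, 95%), and those of medians are 95% order-statistic intervals, read from the ranked values. Python 3.11.15, pandas 2.3.3, numpy 2.4.6 and scipy 1.17.1 were used. With 1 library per group no test was run.

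The members and the gene lists were chosen with earlier results of these data known. Genes were named by rule: all genes with 3 classes, and in each combination the 5 with the longest distance and the 5 highest Ring1b and KAP1 scores. Up to 4 genes per list, a set of fixed genes and those with a knockout-list peak were added. A list and some of the genes so named are not reported here. Genes outside the rule are named at the promoter limit and where said. Alternatives were a score in the upper 50%, windows of 500 and 2000 bp, summits in the window, windows without overlap, autosomes, a reach of 5 kb for the knockout list, and, added after seeing the data, leaving out repeated accessions and windows that list another gene.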

Additional observations from a re-analysis of the deposited data

How the results depend on the processing

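Of 68 recomputed values, 58 stayed within the interval of the reported value (or within 1.5 times a count) and 10 moved. The share of genes with the KAP1 start upstream, 45.2% as reported, lay on the other side of 50% with windows of 2000 bp (52%) and with the summit in the window (51.4%), and its interval includes 50% throughout. Restricting both peak lists to the upper 50% of their scores moved most: 71 genes were then members (33.0% of genes with several promoters), 36 of them with shared and KAP1 only and 14 with KAP1 only and Ring1b only promoters. Under the same limit the start with Ring1b was upstream in 80% of genes. The nearest Ring1b and KAP1 peaks then lay a median of 55732 and 19599 bp from the start without the protein. Requiring the summit in the window gave 48.4% and 18 genes with KAP1 only and Ring1b only promoters. A reach of 5 kb gave knockout-list peaks at 5.63% of the members' promoters. The cause of these moves was not tested, beyond the fewer peaks or the wider reach that the settings impose. The order of the Ring1b starts stayed between 65.5 and 80% upstream. No paired analysis was possible because each group has 1 library. Depth is unknown, so a start called free of a protein may hold it below the calling threshold.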

Other observations

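The whole-gene tables, which class a gene over its entire length, put 115 of the 132 genes (87.1%) in the shared class. All 9 genes with KAP1 only and Ring1b only promoters were among them, as were 88 of the 99 with shared and KAP1 only promoters. Every member has both KAP1 and Ring1b listed among its starts, so the rule itself largely gives this class. The share among the other listed genes was not computed. Gm10778 and Gm13290 stood in both the shared and the Ring1b only whole-gene tables, Ldb1 was listed with KAP1 only, and 14 members were in none of the 3 whole-gene tables.

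Peaks also lay between the differently occupied starts. KAP1 peaks stood there in 89 of the 132 genes (390 peaks, at most 22 in a gene), Ring1b peaks in 29 (40 peaks, at most 3) and knockout-list peaks in 23 (34 peaks, at most 4). The same counts were not made for the 183 single-class genes, so they are not read as a trait of the members. The stretches differ in length, and the KAP1 list is larger than the Ring1b list (82775 against 13516 peaks). The 22 KAP1 peaks were in Magi1, with 0 Ring1b peaks between its starts, and Kdm2b had 15 KAP1 peaks and 1 Ring1b peak. In Wnt5b 5 KAP1 and 2 Ring1b peaks lay between the starts, and in Magi2, across 680472 bp, 4 KAP1 and 0 Ring1b peaks. Within 5 kb of a start, knockout-list peaks stood at 5.63% of the members' promoters and 6.09% of the others.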
